A study of Mus musculus with 11 samples.

Results

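The STAT and SOCS family genes described here are 9 of the 20915 genes measured in sorted splenic CD4 T cells of the mouse. They comprise the transcription factor genes Stat3, Stat4, Stat5a, Stat5b and Stat6 and the feedback inhibitor genes Socs1, Socs2, Socs3 and Cish. They were taken by symbol from the authors' gene table, and all 9 were measured, by 22 probe sets that were each assigned to that gene alone. Stat4 and Cish had 1 probe set, Stat5a, Stat5b, Stat6 and Socs1 had 2, Socs3 had 3, Stat3 had 4 and Socs2 had 5.

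The study compared naive CD4 T cells with innate memory phenotype (IMP) CD4 T cells in unmanipulated mice and in bone marrow chimeras, in which either the marrow-derived or the host cells lacked MHC class II, which displays peptides to these cells. RNA was measured on 11 arrays. All mice were female C57BL/6, and all cells were TCRβ+CD4+ spleen cells sorted by flow cytometry to a purity of 92% to 99%. WT naive (3 arrays) were CD44lo CD62Lhi cells and WT IMP (2 arrays) were CD44hi CD62Llo cells of wild-type mice aged 8 weeks. MW naive (3 arrays) were CD45.2+ CD44lo CD62Lhi cells of chimeras in which CD45.2+ MHCII-/- marrow had been given to lethally irradiated wild-type hosts. WM IMP (3 arrays) were CD45.1+ CD44hi CD62Llo cells of the opposite chimeras, in which CD45.1+ wild-type marrow had been given to lethally irradiated CD45.2+ MHCII-/- hosts. Chimeras were used 8 weeks after the marrow transfer. For MW naive the labels give the hosts as CD45.1+ in one field and CD45.2+ in another, and under the second the gate would not separate donor cells from host cells. IMP cells of MW chimeras and naive cells of WM chimeras were not analysed here, so chimera type and cell type cannot be told apart in the chimeras.

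Cytokines that bind type I and type II receptors activate Janus kinases, which phosphorylate STAT proteins. The STATs then pair, enter the nucleus and bind DNA. STAT5 (encoded by Stat5a and Stat5b) acts downstream of IL-2, IL-7 and IL-15, STAT6 downstream of IL-4, STAT4 downstream of IL-12, and STAT3 downstream of IL-6, IL-21 and IL-10. The SOCS proteins and CIS (encoded by Cish) are induced by the same signals and dampen them, so their transcripts are widely used as readouts of recent cytokine signalling.

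Each value below is a log2 difference from the WT naive mean (3 arrays), so that this mean is 0 for every gene. The values hold no brightness, so no gene's level, or its distance from background, is known, and genes were not compared with each other. A gene's value is the mean of its probe sets, and ± after a difference is limma's standard error. A gene was called where its limma p, adjusted by the Benjamini-Hochberg method over the 20915 genes, was under 0.05. Single probe sets were fitted separately in limma, with p adjusted by the same method over the 38473 probe sets used. The labels call the samples of a group biological replicates, and the 2 or 3 arrays per group limit the precision. In bulk RNA, fewer cells of one kind and less RNA per cell cannot be told apart. The defining T cell genes showed no call between IMP and naive cells of either source taken by itself (0 of 9 measured). In the average of the 2 differences between IMP and naive cells, 1 of the 9 was called lower (Cd247, -0.59 ± 0.13, adjusted p = 0.00775). Of the 9, 4 were lower in WM IMP than in WT naive (Cd2, Cd247, Cd5 and Cd3g, with a median of -0.62 for the list against 0.05 over all genes). The sort gene Cd44 was 2.01 ± 0.17 higher in WT IMP than in WT naive.

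The arrays also differed in their control probes. The poly-A controls were high in 1 array of each group (WT naive 1, MW naive 3, WT IMP 1 and WM IMP 2, at 3.89 or more) and at -1.60 or less in the other 7. The difference between the 5′ and 3′ probe sets of Gapdh, a sign of RNA integrity, ran from -0.42 to 0.41 in WT naive, from -4.22 to -1.38 in MW naive, from -4.23 to -0.27 in WT IMP and from -2.71 to 0.56 in WM IMP. The hybridization controls ran from -0.46 to 0.56 in WT naive, from 1.01 to 1.44 in MW naive, from 0.45 to 0.47 in WT IMP and from 1.62 to 3.17 in WM IMP. What part these differences have in the results was not tested beyond the fits with them as a covariate or block that are named below.

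Socs2 and Cish were higher in IMP than in naive cells in unmanipulated mice and in chimeras, and Cish was also higher in MW naive than in WT naive. Stat4 and Stat6 were lower in MW naive than in WT naive. Socs3, as the mean of probe sets that disagreed, was higher in MW naive than in the other groups. Stat3 and Socs1, as means of their probe sets, were called in no comparison.

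In WT IMP against WT naive, 2 of the 9 genes were called higher and 0 lower, where 5.33% of all genes were called higher and 2.34% lower. In WM IMP against MW naive, 2 were called higher and 1 lower (6.52% and 6.65% of all genes). In MW naive against WT naive, 2 were called higher and 2 lower, where 0.703% and 2.03% of all genes were. In WM IMP against WT IMP, 0 of 9 were called by limma, against 0.359% of all genes higher and 0.846% lower. Of the 9, 5 had an unadjusted limma p under 0.05. The share of all genes under that unadjusted threshold was not counted, here or in the interaction below, so no excess can be read from it. In WM IMP against WT naive, which differ in both cell type and mouse, 5 were called in either direction (21.3% of all genes), and in WT IMP against MW naive 3 were (9.43%). In the average of the 2 differences between IMP and naive cells, 3 were called (17.7%), which were Socs2 (1.56 ± 0.11), Cish (0.97 ± 0.11) and Socs3 (-0.84 ± 0.13). In the interaction, which asks whether the difference between IMP and naive cells was unequal in chimeras and unmanipulated mice, 0 were called by limma (0.0574% of all genes), and Socs3 and Cish had an unadjusted p under 0.05. The median difference of the 9 genes was -0.11 in WT IMP against WT naive (-0.01 over all genes), 0.07 in WM IMP against MW naive (-0.02), -0.16 in MW naive against WT naive (0.05) and -0.01 in WM IMP against WT IMP (0.02). In MW naive against WT naive the 572 calls over all genes fell to 15 in the 7 arrays with low poly-A controls and to 14 with the Gapdh difference as a covariate. These comparisons share arrays, so their counts are not independent of each other.

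**Figure D1:**
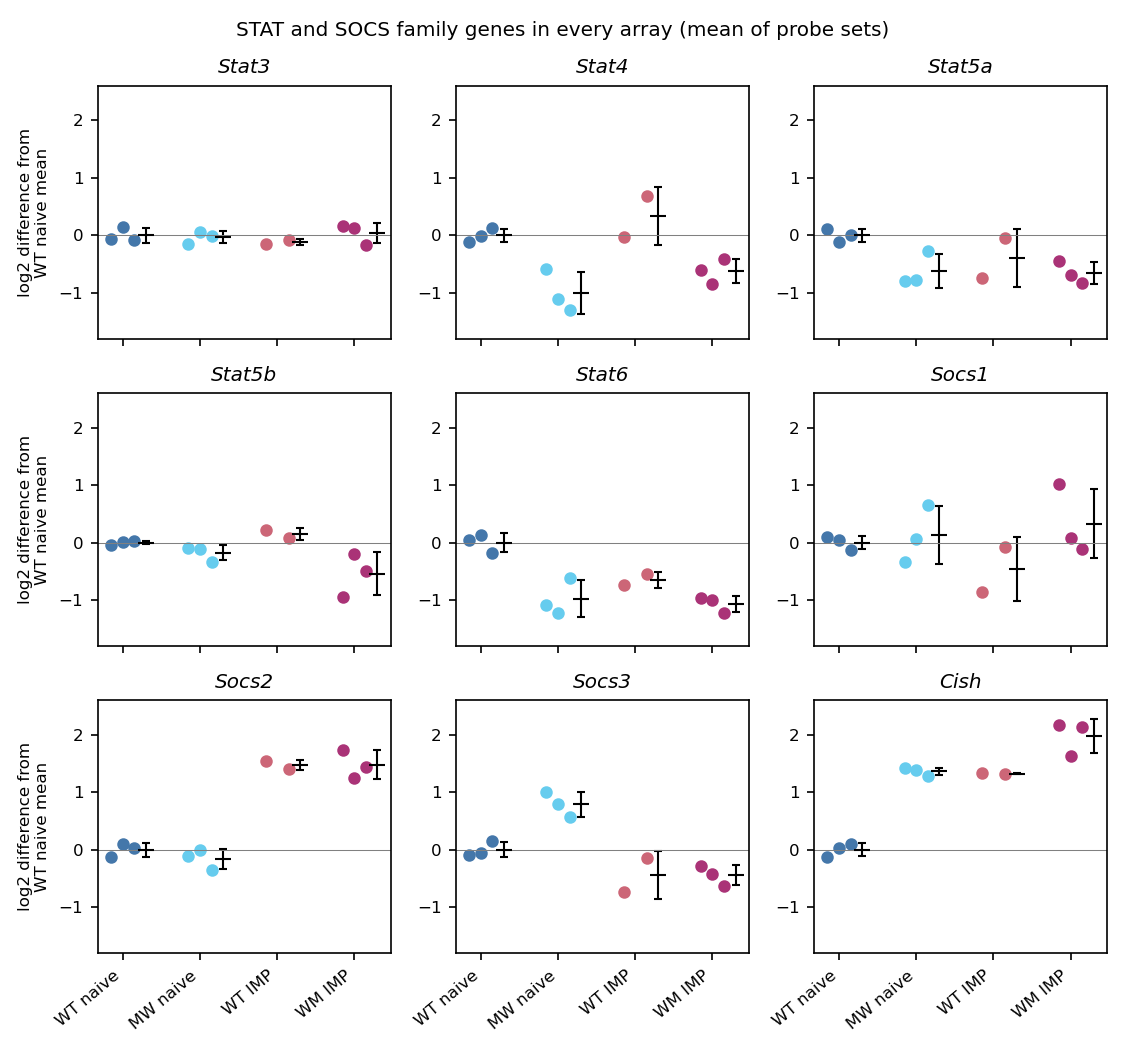
Log2 difference from the WT naive mean (vertical axis) in each of the 11 arrays for the 9 genes, as the mean of the gene's probe sets; points are arrays, the horizontal tick beside each group is its mean and the bar is 1 SD (n = 3, or n = 2 for WT IMP). Socs2 is high in all 5 IMP arrays, Cish is above every WT naive array in the other 3 groups, and Stat6 is below every WT naive array in those groups.

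Stat6, whose product relays IL-4 signals, was lower outside WT naive. It lay at 0.04, 0.14 and -0.18 in WT naive, at -1.09, -1.23 and -0.62 in MW naive, at -0.74 and -0.55 in WT IMP, and at -0.97, -1.001 and -1.23 in WM IMP. All 8 arrays of the other 3 groups were below the lowest WT naive array. Stat6 fell in MW naive by 0.98 ± 0.17 (-0.98, adjusted p = 0.0161). In WM IMP it was at -1.07 ± 0.17 against WT naive (adjusted p = 0.00109), a call that 26 of 26 alternative settings kept. Those that left out only an array of another group could not move this difference. In WT IMP the difference from WT naive was -0.64 ± 0.19 and was not called (adjusted p = 0.0672), although it was called in the fit to those groups alone (adjusted p = 0.0292), with array weights (0.0114), with the hybridization controls as a covariate (0.0211) and without MW naive 3 (0.0275). In the order WM IMP, MW naive, WT IMP, WT naive no neighbours differed by a called amount.

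The Stat6 difference between the naive populations was uneven across its probe sets. Probe set 1421708_a_at was at -1.42 ± 0.22 in MW naive (adjusted p = 0.00962) and 1426353_at at -0.53 ± 0.19 (adjusted p = 0.169). In the authors' gene table the difference was -0.52 ± 0.17 (adjusted p = 0.146). The call was also lost in the 7 arrays with low poly-A controls (-1.14, adjusted p = 0.077), with the Gapdh difference as a covariate (-0.77, adjusted p = 0.254), and without WT naive 1, WT naive 2, MW naive 1 or MW naive 2 (-0.96, -0.91, -0.92 and -0.85, with adjusted p of 0.0683, 0.0621, 0.0753 and 0.0796).

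Stat4, whose product relays IL-12 signals towards T helper 1 differentiation, was lower in both chimera groups than in the unmanipulated group of the same sort. Its values were -0.11, -0.01 and 0.12 in WT naive, -0.58, -1.11 and -1.29 in MW naive, -0.02 and 0.69 in WT IMP, and -0.60, -0.84 and -0.41 in WM IMP. No array of MW naive or WM IMP reached the lowest array of WT naive or WT IMP. MW naive was at -0.997 ± 0.22 against WT naive (adjusted p = 0.0388), and WT IMP was 1.33 ± 0.24 above MW naive (adjusted p = 0.00455). WM IMP against WT IMP was at -0.95 ± 0.24 and was not called (adjusted p = 0.083), nor was WT IMP against WT naive at 0.33 ± 0.24 (adjusted p = 0.635). In the order MW naive, WM IMP, WT naive, WT IMP no neighbours differed by a called amount.

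The Stat4 calls rested on few arrays. The difference of MW naive from WT naive lost its call in 10 of 26 alternatives while its value over all 26 stayed between -1.20 and -0.84. These included the authors' gene table (-0.87, adjusted p = 0.0569), the 7 arrays with low poly-A controls (-0.91, adjusted p = 0.153), the Gapdh and hybridization covariates (adjusted p = 0.327 and 0.182), and the fits without WT naive 1, 2 or 3 (values from -1.05 to -0.94, with adjusted p of 0.0984, 0.107 and 0.157) or without MW naive 2 or 3 (-0.94 and -0.85, with adjusted p of 0.151 and 0.0921). Without WT IMP 2, WT IMP against MW naive was 0.98 (adjusted p = 0.0789). With the poly-A controls as a block, WM IMP against WT IMP was called at -1.02 (adjusted p = 0.0378). WM IMP against WT naive, at -0.62 ± 0.22 (adjusted p = 0.0683), was called in 5 alternatives, which were the fit to both groups alone (adjusted p = 0.0325), the poly-A block (0.0227) and the fits without MW naive 1, WT IMP 1 or WT IMP 2 (0.0456, 0.0482 and 0.0482).

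Stat5a and Stat5b lie side by side on chromosome 11 (GRCm38.p6, 100859351 to 100885169 on the forward strand and 100780731 to 100859004 on the reverse strand), next to Stat3. Stat5a was at 0.11, -0.11 and 0.00 in WT naive, at -0.79, -0.78 and -0.28 in MW naive, at -0.75 and -0.04 in WT IMP, and at -0.45, -0.68 and -0.84 in WM IMP. Both chimera groups lay wholly below WT naive, while WT IMP overlapped it. WM IMP was at -0.65 ± 0.20 against WT naive (adjusted p = 0.0394), and MW naive at -0.61 ± 0.20 was not called (adjusted p = 0.145), except with array weights (-0.72, adjusted p = 0.0225). In the order WM IMP, MW naive, WT IMP, WT naive no neighbours differed by a called amount.

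Stat5b was at -0.03, 0.01 and 0.03 in WT naive, at -0.09, -0.11 and -0.33 in MW naive, at 0.22 and 0.08 in WT IMP, and at -0.94, -0.20 and -0.49 in WM IMP. All WM IMP arrays lay below WT naive and WT IMP, and WM IMP 1 lay furthest. The difference of WM IMP from WT naive was -0.54 ± 0.17 (adjusted p = 0.0425). That from WT IMP was -0.69 ± 0.19 and was not called (adjusted p = 0.0997), but was called without WM IMP 2 (-0.87, adjusted p = 0.025), as was that from MW naive (-0.37 ± 0.17, adjusted p = 0.199, and -0.54 without that array, adjusted p = 0.045). Fitted by itself, neither Stat5b probe set was called in WM IMP against WT naive. There 1422102_a_at differed by -0.78 ± 0.26 (adjusted p = 0.0568) and 1422103_a_at by -0.31 ± 0.15 (adjusted p = 0.202). Against WT IMP they differed by -1.13 ± 0.29 and -0.26 ± 0.17 and were not called. In the order WM IMP, MW naive, WT naive, WT IMP no neighbours differed by a called amount.

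Both STAT5 calls were unstable, and 4 of the 9 T cell identity genes were lower in the same comparison. What part that has in them was not tested. The Stat5a call was lost in 10 of 26 alternatives, among them the fits without WT naive 1, 2 or 3 (-0.60, -0.71 and -0.65, with adjusted p of 0.117, 0.0696 and 0.104), without MW naive 2 (-0.65, adjusted p = 0.0511) and without WM IMP 2 or 3 (-0.64 and -0.56, with adjusted p of 0.0766 and 0.108). It was also lost with the hybridization covariate, at a value of -1.10 (adjusted p = 0.184), with the poly-A block (adjusted p = 0.0512) and in the 7 arrays (-0.59, adjusted p = 0.0922), whereas the authors' gene table gave -1.02 (adjusted p = 0.00945). Of its probe sets, 1421469_a_at was at -1.11, -1.14 and -1.46 in WM IMP and 1450259_a_at at 0.22, -0.22 and -0.21. The Stat5b call was lost in 16 of 26 alternatives. Its value fell to -0.14 in the authors' gene table (adjusted p = 0.504), to -0.34 without WM IMP 1 (adjusted p = 0.093), and turned to 0.09 with the hybridization controls as a covariate (adjusted p = 0.911). It was also lost without WT naive 1, 2 or 3 (adjusted p = 0.0907, 0.103 and 0.118), without MW naive 1 or 2 (0.0564 and 0.0594), without WT IMP 1 or 2 (0.0596 each) and without WM IMP 3 (0.0682), with values from -0.57 to -0.53.

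Stat3, whose product relays IL-6 family, IL-10 and IL-21 signals, ranged from -0.16 to 0.16 over all 11 arrays, and all 4 groups overlapped. Its differences ran from -0.11 ± 0.14 (WT IMP against WT naive, 95% interval -0.43 to 0.20) to 0.16 ± 0.14 (WM IMP against WT IMP, 95% interval -0.16 to 0.47). The mean hid a disagreement among the 4 probe sets. Probe set 1459961_a_at was at 1.44, 0.95 and 0.91 in WM IMP against -0.22 and -0.70 in WT IMP, and fitted by itself it differed by 1.56 ± 0.25 (adjusted p = 0.0172). It was also higher there than in WT naive (1.10 ± 0.22, adjusted p = 0.00452), while 1460700_at, at -0.47, -0.35 and -1.01 in WM IMP, was lower than in WT naive (-0.61 ± 0.20, adjusted p = 0.0493). Probe set 1424272_at held one and the same value in 4 of the 11 arrays, as did 1441476_at of Socs2 and 1422103_a_at of Stat5b. In the order WT IMP, MW naive, WT naive, WM IMP no neighbours differed by a called amount.

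**Figure D2:**
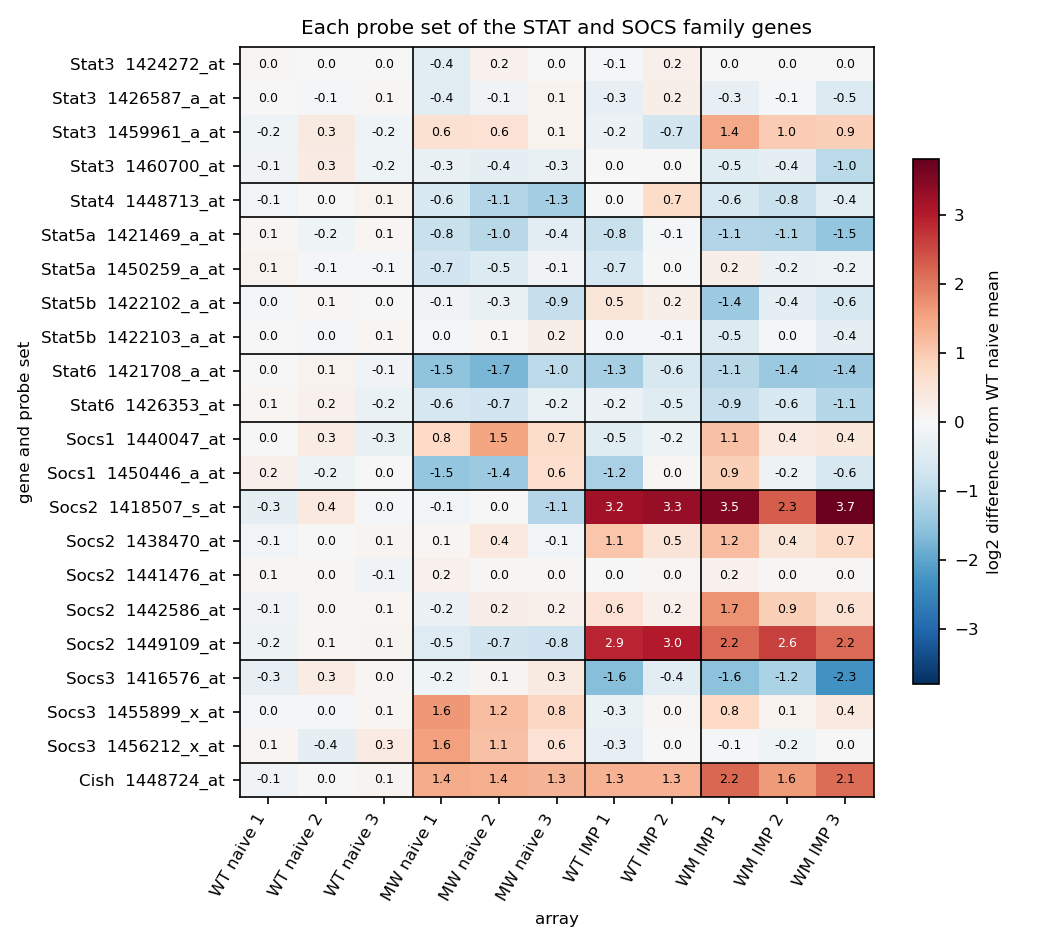
Log2 difference from the WT naive mean (colour and printed value) for each of the 22 probe sets (rows, grouped by gene) in each of the 11 arrays (columns, grouped by population). Within Socs2, 1418507_s_at and 1449109_at reach 2.16 or more in all 5 IMP arrays while 1441476_at does not exceed 0.18, and the 3 probe sets of Socs3 and the 2 of Socs1 differ from each other in MW naive.

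Cish encodes CIS, the first described member of the SOCS family, which STAT5 induces after IL-2 and which in mouse CD8 T cells dampens T cell receptor signalling. It lies on the forward strand of chromosome 9 (GRCm38.p6, 107296659 to 107302784). STAT dimers bind the palindrome TTCNNNGAA, so its promoter is shown here around the matches to that motif, which are in capitals, in the RefSeq window of 250 bases before to 50 bases after the start it is built on, which for Cish is the start of the gene (chr9:107296609-107296687, forward strand, of GRCm38.p6).
Cish: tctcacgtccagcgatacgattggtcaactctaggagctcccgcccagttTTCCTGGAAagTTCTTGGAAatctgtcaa
The first match begins at the annotated start and the second 11 bases further. The motif reads the same on both strands. It occurs in 2726 of 32851 such windows of the mouse annotation (8.3%), and 150 windows (0.457%) hold 2 or more matches. A match is a description of these letters and does not show that a STAT binds there.

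Cish was higher in the other 3 groups than in WT naive. Its single probe set was at -0.12, 0.03 and 0.09 in WT naive, at 1.42, 1.39 and 1.29 in MW naive, at 1.33 and 1.32 in WT IMP, and at 2.18, 1.63 and 2.13 in WM IMP. The SD was 0.07 in MW naive (n = 3), 0.01 in WT IMP (n = 2) and 0.30 in WM IMP (n = 3), where WM IMP 2 was the lowest. None of these 8 arrays overlapped WT naive, and every WM IMP array was above every MW naive and WT IMP array. Cish rose 2.50-fold in WT IMP against WT naive (1.32 ± 0.17, adjusted p = 0.000446), a call that 26 of 26 alternatives kept. Several of these could not move the difference, as Cish has 1 probe set and some fits left out only arrays of other groups. In MW naive Cish was 2.58-fold higher than in WT naive (1.37 ± 0.15, adjusted p = 0.00284), and it lost this call in 1 of 26 alternatives, the 7 arrays with low poly-A controls (1.34, adjusted p = 0.0517). In WM IMP it was 3.94-fold above WT naive (1.98 ± 0.15, adjusted p = 6.47e-06).

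Within the chimeras, Cish was 1.53-fold higher in WM IMP than in MW naive (0.61 ± 0.15, adjusted p = 0.0195). This call was lost in 7 of 26 alternatives, where the value stayed between 0.54 and 0.63: the fit to both groups alone (adjusted p = 0.0894), a variance trend (0.0656), the Gapdh covariate (0.0687), the hybridization covariate (0.164), and the fits without MW naive 2, MW naive 3 or WM IMP 3 (0.0556, 0.0616 and 0.0614). Against WT IMP the difference was 0.66 ± 0.17 and was not called (adjusted p = 0.0821), except without WM IMP 2 (0.83, adjusted p = 0.0118). The interaction was -0.71 ± 0.22 (adjusted p = 0.484, unadjusted p = 0.00898), so the smaller difference in chimeras was not called as unequal to that in unmanipulated mice. In the order WT naive, WT IMP, MW naive, WM IMP the first and the last step were called, and WT IMP differed from MW naive by -0.04 ± 0.17 (adjusted p = 0.931, 95% interval -0.41 to 0.33).

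Socs2, which restrains growth hormone and some cytokine signals and is a STAT5-induced gene, separated IMP from naive cells. It lies on chromosome 10 (GRCm38.p6, 95383903 to 95417321). Its values were -0.13, 0.11 and 0.02 in WT naive, -0.11, -0.01 and -0.36 in MW naive, 1.54 and 1.41 in WT IMP, and 1.74, 1.26 and 1.45 in WM IMP. Every IMP array lay above every naive array, and the IMP groups overlapped each other, as the naive groups did. Socs2 rose 2.78-fold in WT IMP against WT naive (1.48 ± 0.17, adjusted p = 0.000209) and 3.12-fold in WM IMP against MW naive (1.64 ± 0.15, adjusted p = 2.39e-05). WM IMP and WT IMP differed by 0.01 ± 0.17 (95% interval -0.36 to 0.38), and the interaction was 0.17 ± 0.23 (95% interval -0.33 to 0.66, adjusted p = 0.907). In the order MW naive, WT naive, WT IMP, WM IMP only the middle step was called.

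The size of the Socs2 difference depends on the probe set. In WT IMP against WT naive, 1418507_s_at differed by 3.25 ± 0.43 and 1449109_at by 2.95 ± 0.19, 1438470_at by 0.77 ± 0.25 (adjusted p = 0.112), 1442586_at by 0.38 ± 0.29 (adjusted p = 0.699) and 1441476_at by 0.03 ± 0.14 (adjusted p = 0.993). The first pair were called here and in WM IMP against MW naive, at 3.58 ± 0.38 and 2.96 ± 0.17. There 1442586_at was called as well (0.995 ± 0.26, adjusted p = 0.031). The authors' gene table gave 2.64 ± 0.21 for WT IMP against WT naive and 3.04 ± 0.19 for WM IMP against MW naive. With the median of the 5 probe sets in place of the mean, the first was 0.77 and lost its call (adjusted p = 0.128). WM IMP was also above WT naive (1.48 ± 0.15) and WT IMP above MW naive (1.64 ± 0.17), calls that were lost with the hybridization covariate (1.14, adjusted p = 0.069) and with the median of probe sets (0.83, adjusted p = 0.0811), respectively.

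Socs3 encodes the inhibitor that binds gp130, the shared receptor chain of the IL-6 family, and limits STAT3 signalling. It lies on the reverse strand of chromosome 11 (GRCm38.p6, 117966079 to 117970336). Its RefSeq window is built on a start at base 117969366, which lies 970 bases inside that span, so the window does not cover the outermost start of the gene. It holds a single match to the motif described above, beginning 154 bases before the start of the window's transcript, and is shown in part for comparison with Cish (chr11:117969491-117969570, reverse strand, of GRCm38.p6).
Socs3: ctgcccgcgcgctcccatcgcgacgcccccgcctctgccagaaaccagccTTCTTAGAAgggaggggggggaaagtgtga
The 8 genes with a window have 11 windows in all, since Stat4, Stat5a and Stat5b have 2 each. The windows of Stat3, Stat4, Stat5a, Stat5b, Stat6 and Socs1 hold no match, and those of Stat5b are built on starts 8423 and 36434 bases inside its span, so its outermost start was not searched. For the wider-spaced motif TTCNNNNGAA, which STAT6 prefers and which 2284 of the 32851 windows (6.95%) hold, none of the 11 windows has a match. No match says only that these letters are not in those windows of 300 bases.

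Socs3 was higher in MW naive than elsewhere. Its values were -0.09, -0.05 and 0.15 in WT naive, 1.01, 0.79 and 0.57 in MW naive, -0.73 and -0.14 in WT IMP, and -0.29, -0.41 and -0.63 in WM IMP. Every MW naive array was above every other array, and every IMP array was below every naive array. In the authors' gene table WM IMP was at 0.41, -0.11 and 0.02 and overlapped WT naive, and its difference from WT naive turned to 0.10 ± 0.20 (adjusted p = 0.776). Of the probe sets, 1455899_x_at was at 0.77, 0.13 and 0.38 in WM IMP. Socs3 fell by 1.24 (-1.24 ± 0.18, adjusted p = 0.000708) in WM IMP against MW naive, a call that 26 of 26 alternatives kept with values from -1.77 to -0.94. WT IMP against WT naive was at -0.44 ± 0.20 and was not called (adjusted p = 0.283), and the interaction was -0.80 ± 0.27 (adjusted p = 0.494, unadjusted p = 0.0117). In the order WM IMP, WT IMP, WT naive, MW naive only the last step was called (0.79 ± 0.18, adjusted p = 0.0418).

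That step lost its call in 11 of 26 alternatives. Probe sets 1455899_x_at and 1456212_x_at, whose names mark probes that can also match other sequences, were 1.20 ± 0.23 and 1.08 ± 0.25 higher in MW naive than in WT naive, while 1416576_at differed by 0.09 ± 0.33. Without the probe sets named _x_at or _s_at, an alternative chosen after these values were seen, the difference of Socs3 was therefore 0.09 (adjusted p = 0.931), and WM IMP was lower than WT naive by a called amount (-1.68, adjusted p = 0.0036). With all probe sets that difference was -0.44 ± 0.18 and was not called (adjusted p = 0.1001). Other losses included the 7 arrays (0.85, adjusted p = 0.139), with the Gapdh and hybridization covariates (0.94 and 0.75, with adjusted p of 0.216 and 0.152), without WT naive 1, 2 or 3 (0.74, 0.76 and 0.86, with adjusted p of 0.143, 0.124 and 0.111), without MW naive 1 or 2 (0.68 and 0.79, with adjusted p of 0.153 and 0.141) and without WM IMP 2 (0.79, adjusted p = 0.0512). In IMP cells, 1416576_at was at -1.61 and -0.44 (WT IMP) and at -1.55, -1.21 and -2.29 (WM IMP), against -0.17, 0.09 and 0.34 in MW naive. Its difference between WM IMP and MW naive was -1.77 ± 0.33 (adjusted p = 0.00506), that of 1456212_x_at was -1.15 ± 0.25 (adjusted p = 0.0121) and that of 1455899_x_at was -0.78 ± 0.23 (adjusted p = 0.0505). WT IMP against MW naive was at -1.23 ± 0.20 (adjusted p = 0.00189), which lost its call in the 7 arrays (-1.05, adjusted p = 0.0729) and without the _x_at and _s_at probe sets (-1.11, adjusted p = 0.0917).

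Socs1, whose product inhibits Janus kinases after interferon γ and γ-chain cytokines, was spread widely within 3 of the 4 groups. It was at 0.09, 0.04 and -0.13 in WT naive, at -0.34, 0.07 and 0.66 in MW naive, at -0.86 and -0.07 in WT IMP, and at 1.01, 0.09 and -0.10 in WM IMP. All 4 groups overlapped. Its differences ran from -0.59 ± 0.36 (WT IMP against MW naive, adjusted p = 0.417) to 0.79 ± 0.36 (WM IMP against WT IMP, adjusted p = 0.282). With the Gapdh covariate, WT IMP against MW naive (-0.79, adjusted p = 0.0329) and WM IMP against WT naive (0.67, adjusted p = 0.031) were called. Fitted by itself, 1440047_at was lower in WT IMP than in MW naive (-1.32, adjusted p = 0.0191). Its probe sets opposed each other in MW naive, where 1440047_at was at 0.77, 1.51 and 0.69 and 1450446_a_at at -1.46, -1.38 and 0.63. In the order WT IMP, WT naive, MW naive, WM IMP no neighbours differed by a called amount.

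**Figure D3:**
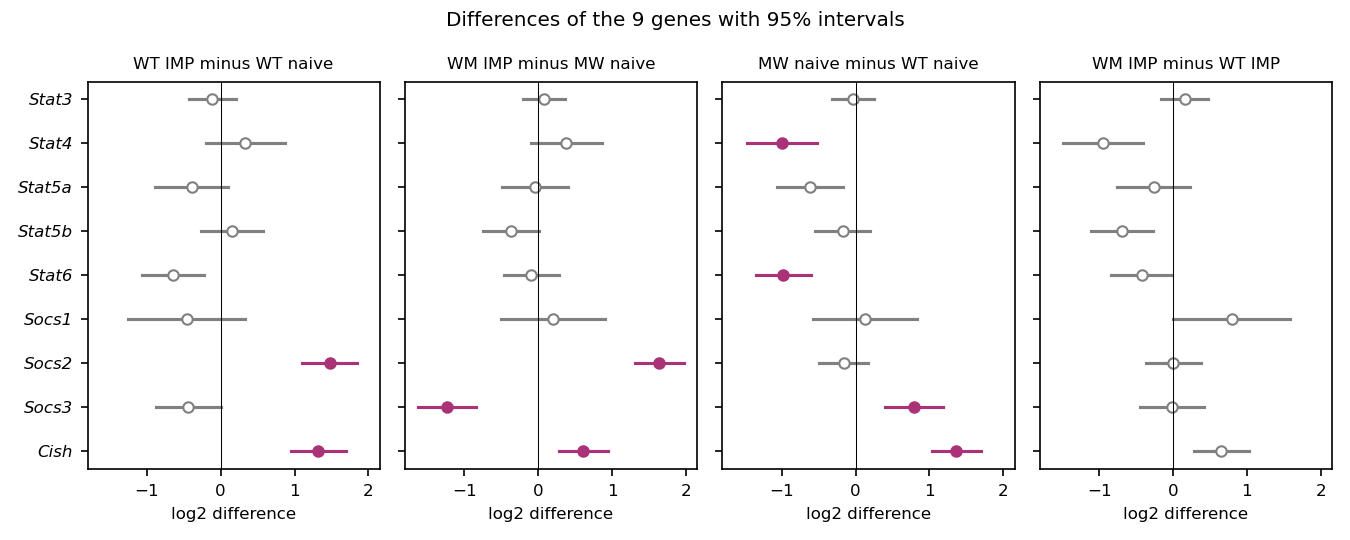
Log2 difference (horizontal axis) of each of the 9 genes in 4 comparisons, with limma's 95% interval as a line; filled points are differences called at an adjusted p under 0.05 and open points are not. Socs2 and Cish are filled in both comparisons of IMP with naive cells, and no gene is filled in WM IMP against WT IMP.

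Among the genes that act with these in the pathway, the Janus kinase gene Jak2 was the 1 of 4 called higher in WT IMP against WT naive (0.69 ± 0.16, adjusted p = 0.0205) and in WM IMP against MW naive (0.68 ± 0.14, adjusted p = 0.00796). Their median difference was 0.08 and 0.46, against -0.01 and -0.02 over all genes. Among all genes, 5.33% and 6.52% were called higher in these comparisons. Of 6 other STAT and SOCS genes, 0 were called by limma in WT IMP, Socs5 was higher in WM IMP (0.61 ± 0.15, adjusted p = 0.0222) and Stat2, which relays type I interferon signals, was lower in MW naive against WT naive (-0.64 ± 0.15, adjusted p = 0.0449). Of 12 other negative regulators, Ptpn2, a phosphatase of Janus kinases and STATs, was higher in WT IMP (0.69 ± 0.18, adjusted p = 0.0454) and Dusp4 in WM IMP (0.97 ± 0.23, adjusted p = 0.0156). In the average of the 2 differences between IMP and naive cells, Jak2 was called higher and Jak1 lower (-0.74 ± 0.20, adjusted p = 0.0229). There 2 of the 12 negative regulators were higher and 3 lower. The lower ones included Cblb (-0.45 ± 0.12, adjusted p = 0.0253) and Pias2 (-0.43 ± 0.11, adjusted p = 0.0212). In MW naive, Dusp4 (-1.19 ± 0.23, adjusted p = 0.0243) and Ptpn6, which encodes the phosphatase SHP-1 (-1.10 ± 0.20, adjusted p = 0.0193), were lower than in WT naive.

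Of 20 cytokine receptors measured, 7 were called higher and 3 lower in WT IMP against WT naive (median 0.23), and 9 higher and 3 lower in WM IMP against MW naive (median 0.37). Among all genes, 5.33% were higher and 2.34% lower in the first, and 6.52% and 6.65% in the second. Il12rb1, a chain of the IL-12 receptor upstream of STAT4, was 3.77 ± 0.28 and 3.11 ± 0.25 higher in these comparisons. Il2rb, the IL-2 and IL-15 receptor β chain upstream of STAT5, was 2.20 ± 0.43 and 2.95 ± 0.38 higher, and Il2ra 0.90 ± 0.21 and 1.30 ± 0.19. The lower receptors in WT IMP were Il21r (-1.07 ± 0.18), Il6ra (-0.96 ± 0.13) and Il4ra (-0.92 ± 0.17), and in WM IMP they were Il7r (-1.22 ± 0.21), Il6ra (-1.01 ± 0.12) and Il4ra (-0.85 ± 0.15). Il4ra encodes the IL-4 receptor chain upstream of STAT6. Il4ra, Il6ra and, for WT IMP, Il2ra are named outside the naming rule, after their values were seen. The rule also names Ifnar2, which was higher in WT IMP against WT naive (1.10 ± 0.16, adjusted p = 0.00109).

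In MW naive against WT naive, 1 receptor was called higher and 3 lower of the 20 (median -0.06, against 0.05 over all genes). Among all genes, 0.703% were called higher there and 2.03% lower. Il7r, the IL-7 receptor chain upstream of STAT5, was 0.95 ± 0.21 higher (adjusted p = 0.0378). Il21r (-1.15 ± 0.16, adjusted p = 0.00595), Il2ra (-0.82 ± 0.19, adjusted p = 0.0451) and Il2rg, the shared γ chain (-0.63 ± 0.11, adjusted p = 0.0166), were lower. Cish, described above, was higher in the same comparison, and Socs2 was not called (-0.16 ± 0.15, adjusted p = 0.663). What part the receptors have in the Cish difference was not tested.

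Genes that STAT proteins are known to induce were counted for each factor. These lists were chosen with earlier results of these data known, so the counts describe the lists and do not test the factors. Among all genes, 5.33% were called higher and 2.34% lower in WT IMP against WT naive. In WM IMP against MW naive the shares were 6.52% and 6.65%. Of 18 STAT5 target genes, 8 were called higher and 1 lower in WT IMP (median 0.39) and 7 higher and 5 lower in WM IMP against MW naive (median 0.22). The higher ones included Gzmb (2.98 ± 0.47 and 4.85 ± 0.42), which encodes granzyme B, and Tnfrsf4 (2.19 ± 0.18 and 3.03 ± 0.16), which encodes the costimulatory receptor OX40. The survival gene Bcl2 was lower in both (-1.74 ± 0.27 and -2.07 ± 0.24), and in WM IMP Myc (-1.32 ± 0.23), Pim2 (-0.81 ± 0.23), Ccnd3 (-0.77 ± 0.13) and Osm (-0.60 ± 0.14) were lower as well. These lower genes are named outside the naming rule, after their values were seen. In MW naive against WT naive, Bcl2 was 1.35 ± 0.24 higher (adjusted p = 0.0167), and Il2ra, Foxp3 (-0.82 ± 0.18) and Tnfrsf9 (-0.82 ± 0.18) were the 3 lower genes. The targets of STAT5 thus moved in both directions in each of these comparisons.

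Of 15 STAT3 target genes measured, 8 were called higher in WT IMP (median 0.70) and 10 in WM IMP against MW naive (median 0.91), with 0 lower by limma in either. Maf, a transcription factor of IL-10 and IL-4 producing T cells, was 3.64 ± 0.14 and 4.27 ± 0.13 higher, and Rora, which acts in T helper 17 cells, 1.97 ± 0.16 and 1.79 ± 0.15. Of 14 STAT4 target genes, 7 and 8 were called higher (medians 1.22 and 1.34), led by Tbx21 (6.04 ± 0.32 and 6.14 ± 0.29), which encodes the T helper 1 factor T-bet. Of 13 STAT6 target genes, 6 were called higher and 1, Il4ra, lower in both (medians 0.26 and 0.43), led by Il4 (5.40 ± 0.20 and 6.26 ± 0.18). Stat3, Stat4 and Stat6 themselves were not called in either comparison. In MW naive against WT naive, Batf, an AP-1 family factor on both the STAT3 and the STAT6 list, was lower (-1.46 ± 0.21, adjusted p = 0.00665) and no other gene of the STAT3, STAT4 and STAT6 lists was called. In WM IMP against WT IMP, Fos (-1.46 ± 0.28, adjusted p = 0.037) and Gadd45b (1.17 ± 0.21, adjusted p = 0.0298) were the genes called on the 4 target lists. Lists share genes, and many of their genes also answer to other signals.

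**Figure D4:**
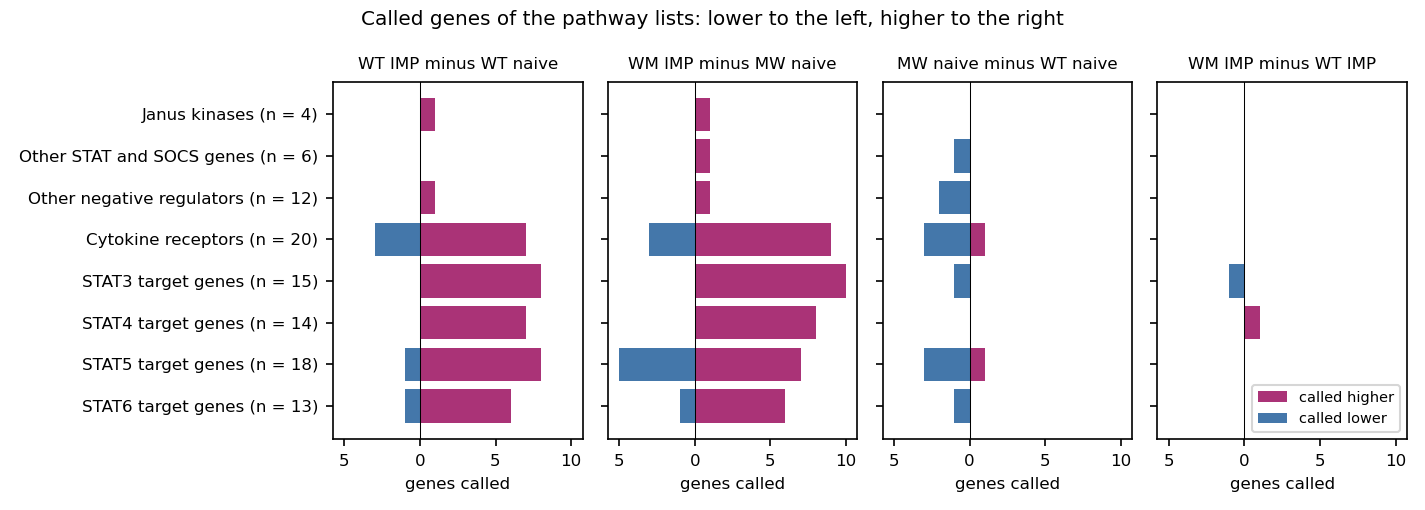
Number of genes called higher (right of 0) and lower (left of 0) in limma at an adjusted p under 0.05 for 8 pathway lists (rows, with the number measured) in 4 comparisons (panels). The target and receptor lists hold most of their calls in the comparisons of IMP with naive cells. So do all genes, with 1604 and 2754 calls there, 572 in MW naive against WT naive and 252 in WM IMP against WT IMP. On the 8 lists, 2 genes are called in WM IMP against WT IMP.

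Markers of other cells moved with the IMP sort, and their part in the Socs2 and Cish results was not tested. Among all genes, 5.33% were called higher in WT IMP against WT naive and 6.52% in WM IMP against MW naive. Of 8 dendritic cell markers measured, 6 were called higher in WT IMP against WT naive and 5 in WM IMP against MW naive. The list mean per array ran from -0.21 to 0.24 in WT naive, from -0.14 to 0.03 in MW naive, from 2.77 to 2.99 in WT IMP and from 1.71 to 2.71 in WM IMP. Of 9 monocyte and macrophage markers, 5 were higher in each, with list means of -0.20 to 0.29, -1.08 to -0.66, 1.58 each and 0.87 to 1.31 in the same order of groups. Of 5 NK cell markers, 2 and 3 were higher, with list means of -0.24 to 0.27, -0.62 to -0.51, 1.24 to 1.27 and 0.55 to 1.12. Of 8 B cell markers, 0 and 4 were higher, with list means of -0.52 to 0.47, -0.77 to -0.04, -0.36 to 0.34 and 0.67 to 2.39. Of 2 CD8 T cell markers, 0 and 1 were higher (Cd8a in WM IMP, 1.81 ± 0.27, adjusted p = 0.000942), with list means of -0.11 to 0.06, -1.01 to -0.72, -0.09 to 0.02 and -0.39 to 0.92.

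All 7 regulatory T cell markers, which include Foxp3 and Il2ra of the STAT5 list, were called higher in both comparisons, with list means of -0.04 to 0.05 in WT naive, -0.67 to -0.40 in MW naive, 1.73 to 1.93 in WT IMP and 1.92 to 1.99 in WM IMP. The sort gates in the labels include no regulatory T cell marker. In MW naive against WT naive, where Cish was higher, 0 markers of dendritic cells, B cells or NK cells were called in either direction by limma, 2 of 9 monocyte and macrophage markers were lower, and 3 of 7 regulatory T cell markers were lower. T cell identity genes were lower there as well in 2 of 9 (Cd2 at -1.15 ± 0.22 and Cd5 at -1.06 ± 0.23), beside the lower Stat4 and Stat6, and what part RNA integrity has in these was not tested beyond the Gapdh covariate.

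The genes whose values over the 11 arrays were most alike those of each member were named by Pearson correlation, as a description in which the arrays share their groups. For Socs2 these were Id2, Vegfc and Zcchc18 (r of 0.99, 0.99 and 0.98), and for Cish they were Adck1, Mndal and Sytl3 (0.97 each). For Stat6 the nearest was Noc4l (0.99), for Stat4 Itgb2 (0.96), for Socs3 Iqcc (0.96), for Stat5a Eif4a1 (0.96), for Stat5b Asl (0.97), for Stat3 LOC552876 (0.92) and for Socs1 Pramel13 (0.93).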

How the data were processed

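RNA of 11 samples in 4 groups was measured on single-channel arrays of 45101 probe sets, from 30 ng of RNA each. The deposited log2 values were made by the authors with RMA, per the submitters' processing notes, and each row was centred on its average in WT naive, which was tested on the file. The log base is not given in the sources used here and follows what RMA usually returns. The authors also deposited a table of log2 values per gene, quantile normalized by its name, with the same baseline and an unstated rule for combining probe sets. It served as an alternative.

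Probe sets listed under several genes (860) or none (5633) were left out. Probe sets of one gene were averaged, and symbols were updated through RefSeq (GRCm38.p6) for 18392 genes. Of 20915 genes, each was fitted by lmFit and eBayes (limma 3.58.1, R 4.3.3) over 4 groups, with 8 contrasts and Benjamini-Hochberg adjustment over all genes. Values hold no brightness, so no filter on dim probe sets was made. The fit was tested on simulated data. Tables and figures were made with Python 3.11.15, pandas 2.3.3, numpy 2.4.6 and matplotlib 3.10.9.

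The members and lists were chosen with earlier results of these data known. Named genes of a list are the up to 4 called genes of greatest difference per comparison, and exceptions are marked. For each member the 3 genes of highest correlation may be named. Promoter windows (250 bases before to 50 after a transcript's start) came from RefSeq, 11 for 8 of the 9 members, all but Socs2.

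Alternatives were the gene table, the replicate block, the groups of a comparison alone, array weights, other summaries of probe sets, centring, robust and trended variance, a filter on genes of low variance, the poly-A, Gapdh and hybridization controls, stricter thresholds and leaving out each array. One summary kept, for each gene and comparison, the probe set of lowest p, which favours low p values. Leaving out an array outside a comparison changes the spread and the adjustment but not the difference itself. For a gene with 1 probe set, other summaries of the probe sets return the same values. Counts of alternatives that kept a call are therefore not counts of independent checks. The 4 arrays with high poly-A controls comprise 1 of each group and allow no fit by themselves.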

Additional observations from a re-analysis of the deposited data

How the results depend on the processing

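Of 1846 member differences recomputed under alternatives, 1755 kept their direction and side of the threshold or changed sign without being called either way (83), 67 lost a call, 23 gained one and 1 turned: Stat5b in WM IMP against WT naive, to 0.0876 with the hybridization controls as a covariate. The number of members called in MW naive against WT naive (4) was 2 in the gene table, 2 with the replicate block, 0 in the 7 arrays with low poly-A controls, 1 with the Gapdh covariate, 2 with the hybridization covariate, 1 at an adjusted p under 0.01 and 1 at 2-fold or more. The calls over all genes there (572) were 648, 302, 15, 14 and 491 in the first 5 of these. In WM IMP against WT naive (5) it was 3 with the replicate block, 3 in the 7 arrays, 2 with the hybridization covariate, 3 at an adjusted p under 0.01 and 3 at 2-fold or more. The calls over all genes there (4465) were 4001 with the replicate block and 1259 with the hybridization covariate. In WM IMP against WT IMP the number of members called (0) was 1 with the probe set of lowest p of each gene and 1 with the poly-A block. In WT IMP against WT naive (2) it was 1 with the median of probe sets, and in the average of the 2 differences (3) it was 1 at 2-fold or more. The replicate block ended the calls of Stat4 (adjusted p = 0.0847) and Socs3 (0.08) in the first of these comparisons and of Stat5a (0.0692) and Stat5b (0.0654) in the second, and moved no other count by over 1.5 times. The numbers showed no sign of pairing the samples: correlations of deviations from the group means ran from -0.28 to 0.19 in 15 pairs with the same number and from -0.26 to 0.26 in 30 with different numbers. Deviations within a group are tied to each other, so these pairs are not independent and cannot show that the samples were unpaired. The causes were not tested.

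Leaving out 1 array at a time gave 1 to 4 members in MW naive against WT naive, 3 to 5 in WM IMP against WT naive, 0 to 2 in WM IMP against WT IMP, 2 to 3 in WT IMP against WT naive, 2 to 4 in WM IMP against MW naive, 2 to 3 in WT IMP against MW naive, 3 to 4 in the average and 0 to 0 in the interaction. Over all genes the calls ran from 119 to 1044 in the first of these comparisons (572 with every array) and from 2851 to 4681 in the second (4465). With 1 WT IMP array left out, as in the 7 arrays, the other is taken to vary like the remaining groups. Fits to the groups of a comparison alone do not exist for the average and the interaction, and the variance filter removed Stat3. Signal over background cannot be read from these values.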
